A study of Mus musculus with 6 samples.

Results

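The genes described here respond to p53, the transcription factor that answers DNA damage and other stress, and were read with Mdm2 at their head in epithelial cells of the mouse colon. A list of 10 genes was set down by name, and each was read from a probe set that names it alone, chosen by the highest mean log2 expression over all 6 arrays where several exist. This gave 8 genes out of 19938 with such a probe set, each with 1 probe set. Bax has no such probe set among those given, and the probe set of Cdkn1a, which encodes the cell cycle inhibitor p21, also names 4930567H12Rik, so these 2 genes were not analysed here. All 8 lay above the floor for dim signal (a mean of 5.81 on the log2 scale), as did 12071 genes in all, and these were the genes tested. The genes were named with results of this same comparison in view, so their differences are given as a description. The adjusted p beside each comes from limma's fit over all 12071 genes and places the gene among them, without being independent support.

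The samples were 3 of colonic epithelium from mice re-fed with antibiotics, whose names the sources used here do not give, and 3 from mice re-fed without them. All mice were wild-type BALB/c males, 6 weeks old, starved for 36 h, with the colon taken after 24 h of re-feeding, and antibiotics were given during the re-feeding alone. Cells were sorted for EpCAM, an epithelial surface protein, and against CD45, the leukocyte antigen. Samples of a group are labelled as biological replicates, with no word on the number of mice behind each, and no group that was never fasted or never re-fed is among them.

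p53 is kept low in unstressed cells by the ubiquitin ligase Mdm2, which binds it and marks it for destruction. Mdm2 is itself a target gene of p53, so the pair forms a negative feedback loop. Once stabilised, p53 switches on genes that halt the cell cycle, repair DNA, adjust metabolism or bring about apoptosis, and in the intestinal crypt it governs the response of dividing cells to irradiation.

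Markers of the sort were read first. Epcam averaged 12.12 ± 0.06 with antibiotics and 12.16 ± 0.11 in re-fed samples (log2 expression, SD, n = 3 each). The summed linear signal of 12 epithelial markers ran from 60008 to 62989 with antibiotics and from 64917 to 66467 in re-fed samples, without overlap. Of the 12, Krt18 (-0.59, adjusted p = 0.0692), Krt20 (-0.46), Cdx2 (-0.32), Krt19 (-0.15) and Krt8 (-0.069) were lower on every antibiotics array than on any re-fed one and Cdx1 (0.33) higher, as log2 differences after quantile normalisation. The part of these markers in the values below was not tested. Ptprc, which encodes CD45, lay below the floor at 5.40 ± 0.12 with antibiotics and 5.44 ± 0.11 in re-fed samples, and so did 15 of 18 leukocyte markers in all. The summed linear signal of those 18 ran from 904 to 992 with antibiotics and from 881 to 972 in re-fed samples. Of 14 stromal and endothelial markers 7 lay below the floor, among them Dcn, Pdgfra and Cdh5, and 7 above it (Col1a1, Col1a2, Col3a1, Pdgfrb, Acta2, Pecam1 and Vwf). The sum of the 14 ran from 937 to 1035 with antibiotics and from 906 to 1021 in re-fed samples. The endothelial marker Pecam1 differed by -0.44 (SE 0.17, adjusted p = 0.337), and by -0.65 within the 4 arrays described next. The deposited values of 4 arrays, antibiotics replicates 1 and 2 and re-fed replicates 2 and 3, were taken to come from a common normalisation run. They share 372 to 435 identical values per pair. Antibiotics replicate 3 shared 42 to 67 with the others and re-fed replicate 1 shared 154 to 198 with those 4. Antibiotics replicate 3 holds 10829 distinct values, against 34568 to 34596 on the other arrays, and so has fewer to share. The number shared without a common run was not estimated. The part of this coarser array in the differences over 6 arrays was not tested. Each difference below is in log2 units, antibiotics minus re-fed, and that within the 4 arrays of the common run is given beside it where it bears on the result.

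Mdm2 was the member with the largest difference, and it was lower with antibiotics. Its log2 expression was 8.28, 8.49 and 7.95 with antibiotics, against 8.72, 9.02 and 9.06 in re-fed samples. The groups did not overlap after quantile normalisation, and the lowest value was that of antibiotics replicate 3. In the deposited values, at 8.38, 8.60 and 7.49 with antibiotics against 8.58, 9.26 and 9.27 in re-fed samples, antibiotics replicate 2 lay just above re-fed replicate 1. The means after quantile normalisation were 8.24 ± 0.27 with antibiotics and 8.93 ± 0.19 in re-fed samples (SD, n = 3 each), a difference of -0.69 (SE 0.16, 95% interval -1.04 to -0.34) or a 1.62-fold lower level. It did not pass limma's test over all genes (adjusted p = 0.152), and its p was the 117th smallest. A difference of this size or more, in either direction, was seen in 0.812% of the genes tested. Within the common run it was -0.65 (SE 0.11, adjusted p = 0.0648), and it ranged from -0.82 to -0.55 when 1 array at a time was left out. In sorted cells measured in bulk, fewer cells of a type that expresses a gene and less of its RNA per cell cannot be told apart.

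None of the 8 members passed limma's test over all genes, where 7 genes did (0.058%), 6 of them lower (0.0497%). At an unadjusted p under 0.05 there were 3, with Mdm2 lower and Aen and Phlda3 higher, beside 12.6% of all genes. The antibiotics and re-fed values did not overlap in 4 of the 8, Mdm2 lower and Aen, Phlda3 and Ccng1 higher, beside 19.6% of all genes, 10.7% lower and 8.88% higher. With the deposited scaling 1 of the 8, Phlda3, had no overlap, beside 6.69% of all genes. In all, 4 members stood above 0 and 4 below, with a median of -0.035, beside 50.7% of genes above 0 and a median of 0.0033 over all genes tested. Since the list was made with the comparison known, nothing is read from these shares.

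**Figure D1:**
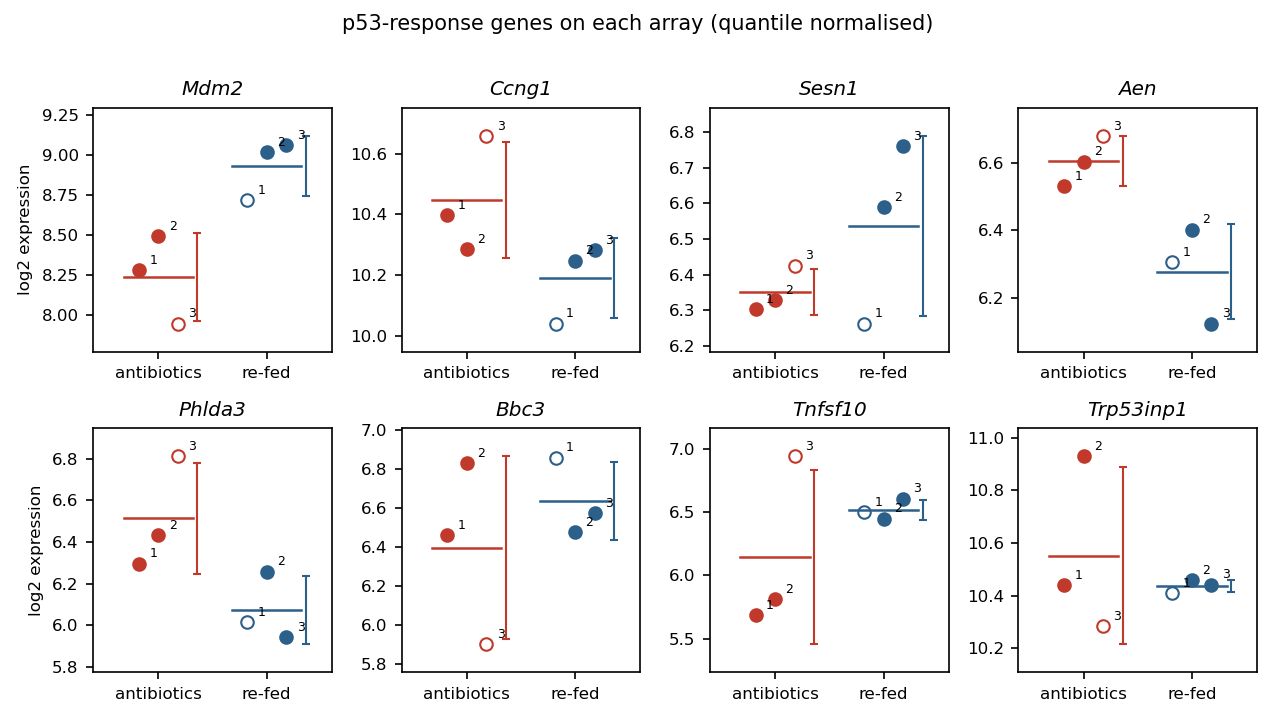
log2 expression of the 8 members on each array, antibiotics left of re-fed, with the replicate number beside each point, a line at the mean and a bar of ± 1 SD (n = 3). Filled points are the 4 arrays of the common run; scales differ between panels. After this normalisation Mdm2 was lower on all 3 antibiotics arrays and Aen, Phlda3 and Ccng1 higher, while Tnfsf10 was low on antibiotics replicates 1 and 2 and high on replicate 3.

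The promoters of 4 measured members hold a sequence that fits the p53 consensus decamer, the unit that p53 binds in pairs. Each window shown holds 1 such decamer and no pair. They are shown for the target genes Mdm2, Ccng1, Sesn1 and Aen, from 250 bases before to 50 after the annotated start (RefSeq, GRCm38.p6), each 5′ to 3′ on the gene's own strand, with the decamer in capitals. The windows are chr10:117710709-117711008 on the minus strand for Mdm2, chr11:40755237-40755536 on the minus strand for Ccng1, chr10:41887189-41887488 on the plus strand for Sesn1 and chr7:78895677-78895976 on the plus strand for Aen.
Mdm2: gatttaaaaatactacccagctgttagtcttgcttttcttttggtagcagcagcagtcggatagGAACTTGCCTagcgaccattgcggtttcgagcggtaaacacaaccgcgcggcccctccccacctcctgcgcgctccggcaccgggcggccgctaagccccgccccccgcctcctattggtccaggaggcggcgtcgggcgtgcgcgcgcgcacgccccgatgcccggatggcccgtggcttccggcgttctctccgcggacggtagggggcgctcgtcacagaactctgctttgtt
Ccng1: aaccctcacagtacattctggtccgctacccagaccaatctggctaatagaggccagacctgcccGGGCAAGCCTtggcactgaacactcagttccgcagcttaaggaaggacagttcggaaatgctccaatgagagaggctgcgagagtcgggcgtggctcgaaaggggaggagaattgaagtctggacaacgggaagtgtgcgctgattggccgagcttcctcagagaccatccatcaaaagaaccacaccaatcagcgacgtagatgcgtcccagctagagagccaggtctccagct
Sesn1: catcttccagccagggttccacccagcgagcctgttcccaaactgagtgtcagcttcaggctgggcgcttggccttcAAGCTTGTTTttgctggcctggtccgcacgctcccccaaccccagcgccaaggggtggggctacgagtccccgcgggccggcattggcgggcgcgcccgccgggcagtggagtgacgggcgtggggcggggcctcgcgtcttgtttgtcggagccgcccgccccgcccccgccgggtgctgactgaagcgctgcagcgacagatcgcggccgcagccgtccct
Aen: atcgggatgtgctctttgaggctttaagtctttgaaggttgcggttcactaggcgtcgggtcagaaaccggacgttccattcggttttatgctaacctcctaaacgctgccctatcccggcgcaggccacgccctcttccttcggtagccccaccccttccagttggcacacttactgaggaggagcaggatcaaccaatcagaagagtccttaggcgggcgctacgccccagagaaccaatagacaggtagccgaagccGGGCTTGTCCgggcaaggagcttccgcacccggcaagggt

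The decamer began 186 bases before the start of Mdm2, 185 before that of Ccng1, 173 before that of the start of Sesn1 shown, and 10 bases after that of Aen. Its letters were matched exactly, and the consensus reads the same on both strands. Such a match was found in 8.36% of 32851 promoter windows and for 9.55% of 27025 genes. A pair, 2 matches at most 13 bases apart, was found in 0.0731% of the windows and in none of those shown. Among the measured members it was found for 4 of the 7 with a window in the table, and not for Phlda3, Bbc3 or Tnfsf10. Sesn1 has a further annotated start whose window has no match, and Aen a further one whose window takes in the same match. The 4 genes differed in direction, Mdm2 and Sesn1 below 0 and Ccng1 and Aen above. A match describes the sequence and was not tested as a binding site here, and p53 elements outside these windows were not examined.

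Of the members that act on the cell cycle and on growth, Ccng1 was higher with antibiotics after quantile normalisation, with overlap in the deposited values, and Sesn1 overlapped between the groups. Ccng1 encodes cyclin G1, a p53 target that recruits a phosphatase to Mdm2. It was expressed at 10.40, 10.28 and 10.66 with antibiotics, against 10.04, 10.25 and 10.28 in re-fed samples, so antibiotics replicate 2 lay just above the highest re-fed array. The difference was 0.26 (SE 0.13, adjusted p = 0.444) over 6 arrays and 0.076 within the common run. There it turned to -0.0087 with the deposited scaling.

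Sesn1 encodes sestrin 1, which restrains mTORC1, the kinase complex that drives growth. It stood at 6.30, 6.33 and 6.42 with antibiotics, against 6.26, 6.59 and 6.76 in re-fed samples. Re-fed replicate 1 was the lowest of all 6 arrays after quantile normalisation, and antibiotics replicate 3 was the lowest in the deposited values. Re-fed replicates 2 and 3 were the highest. The difference was -0.19 (SE 0.14, adjusted p = 0.600) and ranged from -0.32 without re-fed replicate 1 to -0.074 without re-fed replicate 3. It was -0.36 within the common run (adjusted p = 0.172).

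Among the members tied to cell death, Aen and Phlda3 were higher with antibiotics on all 3 arrays after quantile normalisation, and in the deposited values this held for Phlda3 but not for Aen. Aen encodes a nuclease that takes part in DNA fragmentation downstream of p53. Its values were 6.53, 6.60 and 6.68 with antibiotics, against 6.31, 6.40 and 6.12 in re-fed samples, and the 3 antibiotics arrays lay close together. The difference was 0.33 (SE 0.11, 95% interval 0.079 to 0.58, adjusted p = 0.289), a 1.25-fold higher level, and 0.30 within the common run. Leaving out 1 array at a time gave 0.25 to 0.39.

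Phlda3 encodes a pleckstrin homology protein that holds back the survival kinase Akt. It was measured at 6.30, 6.43 and 6.81 with antibiotics, against 6.02, 6.26 and 5.95 in re-fed samples. The groups were separated by a narrow gap, and antibiotics replicate 3 stood highest after quantile normalisation but antibiotics replicate 2 in the deposited values. The difference was 0.44 (SE 0.15, 95% interval 0.10 to 0.78, adjusted p = 0.290), a 1.36-fold higher level. It was 0.29 without antibiotics replicate 3 and 0.26 within the common run.

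Tnfsf10, which encodes the death ligand TRAIL, was split within the antibiotics group. It stood at 5.69, 5.81 and 6.94 with antibiotics, against 6.50, 6.45 and 6.60 in re-fed samples. Antibiotics replicates 1 and 2 were the lowest of all 6 arrays. Antibiotics replicate 3 was the highest after quantile normalisation, and re-fed replicate 3 was the highest in the deposited values. The SD was 0.69 with antibiotics and 0.080 in re-fed samples, and the difference was -0.37 (SE 0.28, adjusted p = 0.610). Without antibiotics replicate 1, 2 or 3 it was -0.14 (adjusted p = 0.902), -0.20 (adjusted p = 0.802) or -0.77 (adjusted p = 0.0681). Within the common run it was -0.78 (SE 0.11, adjusted p = 0.0398), as 1 of 54 genes called there (0.447% of those tested). The 2 antibiotics arrays of that run average 5.75, below the floor of 5.81 for dim signal, so the size of this difference rests on a group at the level of dim probe sets. With the deposited scaling on the same 4 arrays it was -0.70 (adjusted p = 0.0501).

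Bbc3 encodes Puma, a BH3-only protein that sets off mitochondrial apoptosis and mediates crypt cell death after irradiation. Its values were 6.46, 6.83 and 5.90 with antibiotics, against 6.86, 6.48 and 6.57 in re-fed samples. The groups overlapped, and antibiotics replicate 3 was the lowest array. The difference was -0.24 (SE 0.21, adjusted p = 0.666), near 0 without that array (0.0083) and 0.12 within the common run.

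Trp53inp1 encodes a nuclear protein that promotes p53 activity and autophagy. It stood at 10.44, 10.93 and 10.28 with antibiotics, against 10.41, 10.46 and 10.44 in re-fed samples. The re-fed arrays were nearly level (SD 0.024), whereas the antibiotics arrays lay on both sides of them (SD 0.34). The difference was 0.11 (SE 0.16, adjusted p = 0.802), and -0.074 without antibiotics replicate 2.

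**Figure D2:**
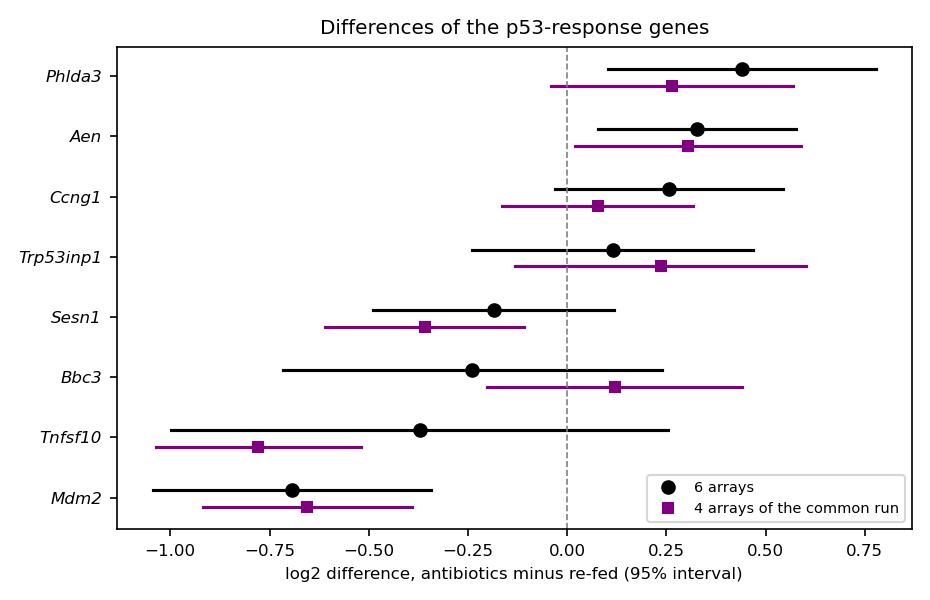
Difference in log2 expression, antibiotics minus re-fed, of the 8 members with 95% intervals from limma, over 6 arrays (circles) and within the 4 arrays of the common run (squares). The interval of Mdm2 lies below 0 and that of Aen above 0 in both; Tnfsf10 is at -0.37 over 6 arrays and at -0.78 within the common run, and Bbc3 changes side.

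After quantile normalisation antibiotics replicate 3 was the extreme array of the 6 in 7 members. It was the highest for Ccng1, Aen, Phlda3 and Tnfsf10 and the lowest for Mdm2, Bbc3 and Trp53inp1. In the deposited values it was not the highest for Ccng1, Aen, Phlda3 or Tnfsf10, and it was the lowest for Mdm2, Bbc3, Trp53inp1 and Sesn1. The share of all genes with their extreme value on this array was not counted. Of 12 proliferation genes, 11 also stood highest on antibiotics replicate 3 after quantile normalisation, the exception being Birc5. In the deposited values, where this array had the lowest median (5.63), Mcm6 alone of the 12 stood highest on it. The differences of all 12 in those values were above 0, from 0.0044 for Top2a to 0.51 for Mcm5, beside a median of -0.12 over all genes. The mean log2 expression of the 12 after quantile normalisation was 7.60, 7.35 and 8.02 with antibiotics, against 7.18, 7.42 and 7.35 in re-fed samples. All 12 stood above 0 (median 0.34), beside 50.7% of all genes, and 0 passed limma's test. At an unadjusted p under 0.05 there were 4, beside 5.3% of all genes in that direction. The summed linear signal of 13 proliferation genes ran from 2658 to 4158 with antibiotics and from 2448 to 2737 in re-fed samples, and Bub1 was the 1 below the floor. Mki67 differed by 0.50 (SE 0.22, adjusted p = 0.387) and Pcna, the replication clamp and itself a p53 target, by 0.27 (SE 0.15, adjusted p = 0.481). Within the common run, whose fit leaves that array out, 10 of the 12 stood above 0 and 2 below, with a median of 0.10 (0.0996). Over all genes 6345 stood above 0 there and 5726 below. Mki67 differed there by 0.11 and Pcna by 0.19. Pcna was at 0.12 without antibiotics replicate 3 alone and at 0.080 with the deposited scaling. The part of proliferation in the values of the members was not tested.

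Genes that control p53 or Mdm2 protein were read from a list of 14, of which 9 were tested. Usp2 encodes a deubiquitinase that stabilises Mdm2. It stood at 7.87, 7.37 and 7.82 with antibiotics, against 8.93, 8.48 and 9.03 in re-fed samples, with a gap between the groups. The difference was -1.13 (SE 0.18, 95% interval -1.53 to -0.73), a 2.18-fold lower level, and it did not pass over all genes (adjusted p = 0.0692). It was -1.14 within the common run (adjusted p = 0.073), and it passed under 5 alternatives, among them the deposited scaling (-1.31, adjusted p = 0.000841).

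The other regulators had smaller differences than Usp2. Mdm4, the partner of Mdm2 that blocks p53's activation domain, differed by 0.054 (SE 0.13, adjusted p = 0.894), with an interval of -0.23 to 0.34, and by -0.13 with the deposited scaling. The phosphatase Ppm1d, a p53 target that damps the response, differed by 0.18 (SE 0.099, adjusted p = 0.473), or -0.0038 with the deposited scaling. Rchy1, a further ubiquitin ligase for p53, differed by 0.19 (SE 0.14, adjusted p = 0.588), with 0.079 without antibiotics replicate 2, 0.33 without antibiotics replicate 3 and 0.019 with the deposited scaling. Within the common run Rchy1 was at 0.33 (adjusted p = 0.212), Mdm4 at 0.20 (adjusted p = 0.379) and Ppm1d at 0.13 (adjusted p = 0.540). Of the 9 tested, 4 stood above 0 and 5 below with a median of -0.042, and 0 passed. At an unadjusted p under 0.05 there was 1, beside 12.6% of all genes. Within the common run 0 passed and 4 had an unadjusted p under 0.05, beside 2097 of 12071 genes. Trp53, which encodes p53 itself, was not analysed here, as no probe set names it alone.

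Of 22 other p53 targets of arrest, repair and stress, those with the smallest p were Gadd45a, Plk3 and Triap1, all lower with antibiotics. Gadd45a, a stress sensor that slows the cell cycle and aids repair, was at 8.27, 8.69 and 8.53 with antibiotics, against 9.44, 9.27 and 9.15 in re-fed samples, without overlap. Its difference was -0.79 (SE 0.13, 95% interval -1.09 to -0.49, adjusted p = 0.0757), a 1.73-fold lower level, and it was -0.73 within the common run (adjusted p = 0.0823). The stress kinase Plk3 was at 10.77, 11.25 and 10.68 with antibiotics, against 11.50, 11.48 and 11.68 in re-fed samples. Its groups did not overlap after quantile normalisation but did in the deposited values. It differed by -0.65 (SE 0.15, adjusted p = 0.162). Triap1, a small inhibitor of apoptosis, was at 8.20, 8.25 and 7.999 with antibiotics, against 8.47, 8.85 and 8.65 in re-fed samples. It differed by -0.51 (SE 0.13, adjusted p = 0.184).

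Of the 22, 9 stood above 0 and 13 below with a median of -0.075, and 0 passed. Within the common run 6 stood above 0 and 16 below, with a median of -0.063. Over all genes tested 6345 stood above 0 there and 5726 below, with a median of 0.012. The groups did not overlap in 5 lower genes and 1 higher one, beside 10.7% and 8.88% of all genes. With the deposited scaling this held for Gadd45a and Ephx1, both lower, beside 6.01% of all genes. At an unadjusted p under 0.05 there were 5 lower and 1 higher, beside 7.32% and 5.3% of all genes. That higher gene was Ddit4, picked out once its value was known, an inhibitor of mTORC1 that also answers glucocorticoids and low oxygen. It stood at 9.29, 9.34 and 8.92 with antibiotics, against 8.73, 8.60 and 8.72 in re-fed samples, a difference of 0.50 (SE 0.13, adjusted p = 0.196). Within the common run it was 0.65 (adjusted p = 0.0584), and in the deposited values its groups overlapped.

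**Figure D3:**
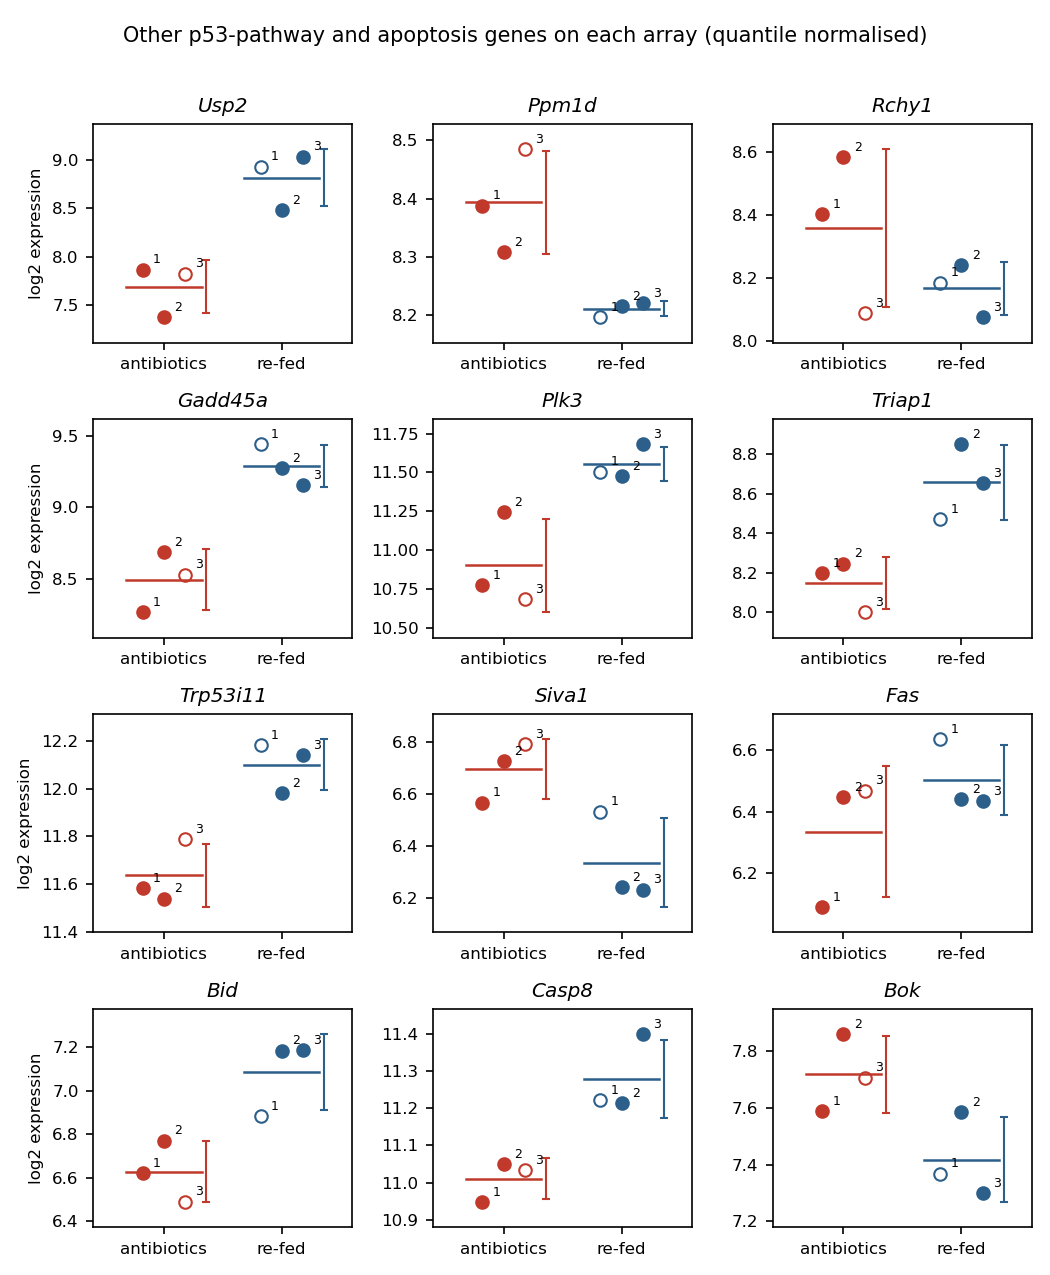
log2 expression of 12 further genes on each array, the 3 with the smallest unadjusted p in each of the 4 lists of the p53 pathway and apoptosis, drawn as for the members: antibiotics left of re-fed, filled points for the common run, a line at the mean and a bar of ± 1 SD (n = 3). These genes were picked for their small p; over all 65 genes tested in the 4 lists the groups did not overlap in 6 higher and 10 lower genes (24.6%, beside 19.6% of all genes), and with the deposited scaling in 0 higher and 6 lower (9.23%, beside 6.69%).

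Of 11 other p53 targets tied to death, 5 stood above 0 and 6 below with a median of -0.021. Trp53i11, a p53-induced gene, was at 11.58, 11.54 and 11.79 with antibiotics, against 12.18, 11.98 and 12.14 in re-fed samples, and differed by -0.46 (SE 0.11, adjusted p = 0.177). Siva1, a pro-apoptotic protein, was at 6.57, 6.73 and 6.79 with antibiotics, against 6.53, 6.24 and 6.23 in re-fed samples, and differed by 0.36 (SE 0.12, adjusted p = 0.289). Both separated the groups after quantile normalisation, in opposite directions. In the deposited values Trp53i11 still did, and for Siva1 the groups overlapped. The death receptor Fas differed by -0.17 (SE 0.13, adjusted p = 0.621), or -0.045 without antibiotics replicate 1. Of the 11, 0 passed, with 1 in each direction at an unadjusted p under 0.05, beside 5.3% higher and 7.32% lower of all genes.

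The Bcl-2 family and the caspases, the machinery to which Bax and Puma belong, went both ways. Of 23 genes tested, 13 stood above 0 and 10 below with a median of 0.067, and 0 passed. With the deposited scaling the median was -0.070, where that of all genes was -0.12. At an unadjusted p under 0.05 there were 1 higher and 2 lower, beside 5.3% and 7.32% of all genes. Bid, the BH3-only protein that links death receptors to mitochondria, was at 6.62, 6.77 and 6.49 with antibiotics, against 6.88, 7.19 and 7.19 in re-fed samples, and differed by -0.46 (SE 0.13, adjusted p = 0.213). Casp8, the caspase that cleaves Bid, was at 10.95, 11.05 and 11.03 with antibiotics, against 11.22, 11.21 and 11.40 in re-fed samples, and differed by -0.27 (SE 0.10, adjusted p = 0.341). Bok, a Bcl-2 relative of the Bax type, differed by 0.30 (SE 0.12, adjusted p = 0.353). These 3 have the smallest p of the list. The groups did not overlap in 3 higher genes (Bok, Bak1 and Bmf) and 3 lower ones (Bid, Casp8 and Cycs), beside 8.88% and 10.7% of all genes. Of these, Bak1, Bmf and Cycs are named after their values were seen. With the deposited scaling the groups overlapped in all of these genes. Bcl2l1, also named after its value was seen, was then lower without overlap, beside 6.01% of all genes.

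**Figure D4:**
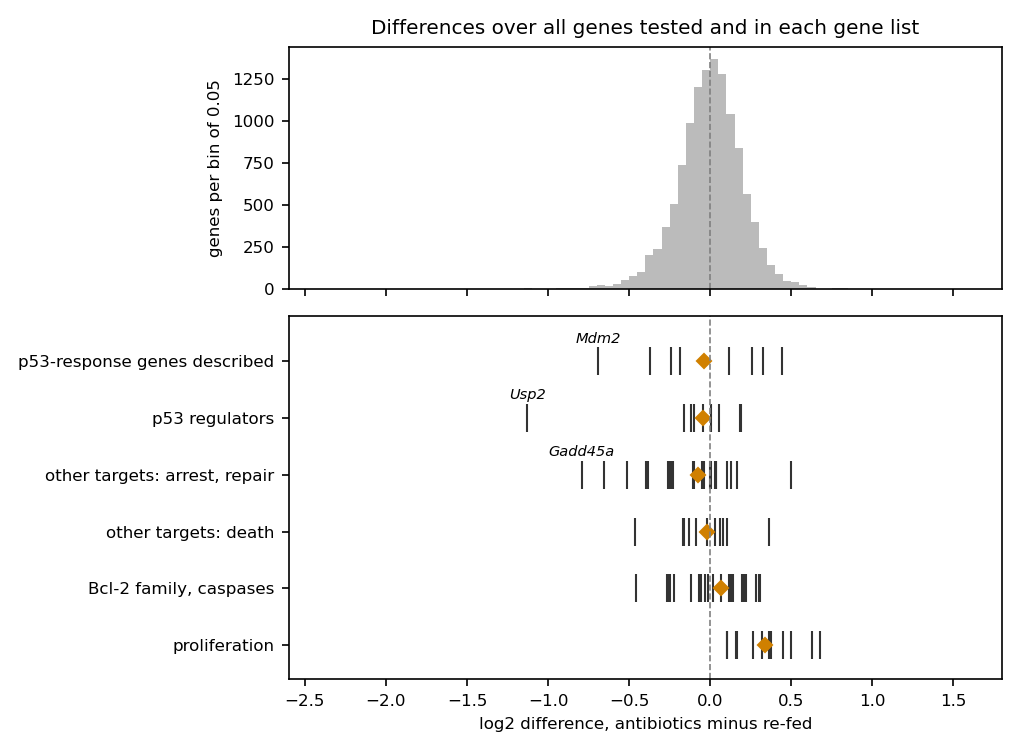
Top, histogram of the log2 difference, antibiotics minus re-fed, over the 12071 genes tested. Bottom, the difference of each tested gene (ticks) and the median (diamond) of each list; the medians of the 5 p53 and apoptosis lists lie between -0.075 and 0.067, with Mdm2, Usp2 and Gadd45a far to the lower side of their lists, and that of proliferation at 0.34.

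The genes whose profile over the 6 arrays was most like that of Mdm2 were Gsdma3, a gasdermin (Pearson r = 0.996), Ube2a, a ubiquitin-conjugating enzyme (0.995), the peptidase Nln (0.994), Ptpn23, a protein of endosomal sorting (0.994), and Rheb, the GTPase that activates mTORC1 (0.991). With 6 arrays that fall into 2 groups, 109 genes had an r of at least 0.95, so this ranking is a description. Their differences ran from -0.13 for Ptpn23 to -0.44 for Nln, all smaller than that of Mdm2, and their adjusted p lay between 0.213 and 0.603.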

How the data were processed

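Total RNA from sorted cells (6 µg) was made into biotin-labelled cRNA for Affymetrix arrays, per the labels' protocols. The deposited table holds log2 expression of 35557 probe sets on 6 arrays, made by the authors with RMA, per the submitters' processing notes; its version is not given in the sources used here. Of these, 21789 name 1 gene, 1621 several, and 12147 are unnamed here. Array medians differed (5.63 to 6.17), so the values were quantile normalised over the 23410 probe sets with a gene. Groups and replicates come from the sample titles.

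The floor for dim signal was the 40th percentile of probe set means (5.81). The test was limma (version 3.58.1, R 4.3.3; lmFit, eBayes, two-sided, Benjamini-Hochberg over 12071 genes, threshold 0.05), without a block. Its p-values measure the spread between these samples. With the deposited scaling over 6 arrays the genes were given the same SE, so p there does not measure each gene's own spread. Alternatives were the deposited scaling, the filter, array weights, a variance trend, the mean over probe sets, a replicate block, the common run, which was inferred from the values, and each array left out. For the common run and each array left out, arrays were dropped from the fit alone. Quantile normalisation, where used, and the floor for dim signal still drew on all 6 arrays. Promoter windows came from RefSeq (GRCm38.p6).

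The members, lists and alternatives were chosen with earlier results of these data known. Named genes were the members, Trp53, Mdm4, up to 3 genes per list of smallest unadjusted p with any called, Epcam, Ptprc, Mki67, Pcna, and the 5 genes most like Mdm2. Precision is limited by the number of arrays.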

Additional observations from a re-analysis of the deposited data

How the results depend on the processing

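The count of genes called, 7 over all genes, was 45 with the deposited scaling, 2 with no filter on dim probe sets, 43 with the stricter filter, 1169 with array weights, 43 with a variance trend, 54 in the common run and 63 there with the deposited scaling; it lay between 0 and 11 with 1 array left out. The 45 were called with the same SE for the genes, so that count follows the size of the differences alone. In the limma fit with 0, without antibiotics replicate 1, 1040 genes had an unadjusted p under 0.05. The members' median of -0.035 was -0.16 with the deposited scaling, where the median of all genes was -0.12. It was 0.11 with the stricter filter, which leaves 3 members, 0.098 in the common run, 0.065 there with the deposited scaling, and between -0.12, without antibiotics replicate 2, and 0.080, without antibiotics replicate 3, with 1 array left out.

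Of 115 values of members under alternatives, 105 kept direction and side of the threshold. Mdm2 stayed below 0 in all of its alternatives, with adjusted p from 0.0062 to 0.46. It passed with array weights (-0.70, adjusted p = 0.0062), where 1169 of 12071 genes passed. It also passed in the common run with the deposited scaling (-0.77, adjusted p = 0.046), where 63 genes did. Tnfsf10 passed in the common run, where 54 genes did, with its antibiotics arrays at the level of dim signal. It passed as well with array weights (-0.72, adjusted p = 0.0295), where 1169 did. Of the 4 members without overlap between the groups, 1 (Phlda3) had none with the deposited scaling. Direction turned for Bbc3 in the common run (0.12, and 0.17 with the deposited scaling) and, over arrays left out, between -0.45 and 0.0083. It turned for Ccng1 in the common run with the deposited scaling (-0.0087) and for Trp53inp1 with the deposited scaling (-0.075) and between -0.074 and 0.25 over arrays left out. With the deposited scaling Ppm1d was at -0.0038 and Mdm4 at -0.13, and Mdm4 lay between -0.050 and 0.18 over arrays left out. Epcam was at 0.048 in the common run, at 0.015 there with the deposited scaling, and between -0.075 and 0.026 over arrays left out. Over the 29 named genes, 394 of 426 values kept direction and side, 12 turned direction and 20 passed only under an alternative. With the deposited scaling the list medians were -0.14 for p53 regulators, -0.19 for arrest and repair, -0.20 for death and -0.070 for the Bcl-2 family and caspases. The cause of these changes was not tested.

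The deviations of same-numbered arrays had correlations of 0.021, -0.034 and -0.22. Because each group holds so few arrays, these values cannot decide whether the numbers pair the samples. With the replicate block 7 genes were called, Mdm2 had an adjusted p of 0.249, and Usp2 passed (adjusted p = 0.0246).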
